A study of Mus musculus with 12 samples.

Results

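RNA-seq libraries of primary astrocytes from P6 mice were compared between the labels cKO and WT. The comparison used 4 of the 12 libraries of the series, 2 for each label, chosen by the age in their labels. The other 8 libraries came from P1 and P8 and are used here only to set the P6 values beside other ages. P6 is the age at which the brains were dissected. According to the study's methods, the tissue was stripped of its meninges, dissociated and cultured, shaken to remove microglia and oligodendrocytes and then grown to confluence, so the cells were older than P6 when RNA was taken.

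The cKO mice were hGFAP-Cre::*Rack7* fl/fl and the WT mice hGFAP-cre::*Rack7* +/+, so both carried the Cre transgene and differed in the floxed allele. The line was made in C57BL/6 zygotes. Cre is driven by the human GFAP promoter, which is active in embryonic neural stem cells, so recombination is expected in neurons and glia that derive from them and not in microglia, vessel cells or meningeal cells. Nothing says whether animals were pooled for a culture. Both libraries of a label are named biological replicates. The p-values rest on the spread between such replicates, estimated over all 12 libraries in 6 groups and not from the P6 libraries alone.

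RACK7, also called ZMYND8, is a chromatin reader that recognises modified histone tails and works with histone demethylases and deacetylase complexes at enhancers and promoters. Astrocytes secrete extracellular matrix, clear potassium and glutamate, make cholesterol for neurons and respond to inflammatory signals. Cultures from neonatal brain can also hold microglia, meningeal fibroblasts and vessel cells, and fibroblasts are the usual source of fibrillar collagen in brain.

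Levels are given in CPM (counts scaled to the same total in every library, with TMM library sizes), and log2 fold changes are cKO minus WT. A gene is said to rise or fall where edgeR's quasi-likelihood test gave a Benjamini-Hochberg adjusted p under 0.05 and the fold change was at least 1.5 with the label cKO. Of 17938 genes tested at P6, 1284 rose (7.16%) and 1144 fell (6.38%), so 13.5% changed in either direction, and the median log2 fold change of all genes was 0. Both libraries of 1 label lay beyond both of the other for every gene called, and for 59.0% of all genes tested. A permutation test of 2 libraries against 2 cannot give a p under 0.333, so every p comes from the fit over all genes.

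The targeted gene went against its labels. *Zmynd8*, the gene of RACK7, had 113.8 and 116 CPM with the label WT and 242 and 230.5 with the label cKO (log2 fold change 1.04, standard error 0.047, adjusted p = 4.97e-07 by edgeR). Both libraries labelled cKO were the higher ones at P6, and likewise at P1 and P8. Counts per gene cannot show whether the floxed exons were missing from these transcripts. The study also measured RACK7 protein in such cells by immunoblot, which is not analysed here. All directions below are therefore those of the libraries labelled cKO against those labelled WT.

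The 4 libraries held between 64179279 and 68634038 counts. No library was a copy of another: per degree of freedom, the chi-square between replicates was 47.1 for WT and 42.0 for cKO, and the rank correlations across genes were 0.991 and 0.992. The astrocyte markers summed to 1966 and 2166 CPM with the label WT and 1781 and 1924 with the label cKO, and 1 of 11 fell. Microglia and macrophage markers were also abundant, at 5064 and 5268 CPM against 5708 and 5653, with 1 of 18 rising and 1 falling. Fibroblast and meningeal markers fell in 10 of 14, from 9091 and 10090 CPM to 6070 and 4625, and *Lum* among them was at 0 with the label cKO. Neural stem cell markers rose in 4 of 9 and fell in 1, from 4029 and 4170 CPM to 6639 and 6508. Endothelial markers fell in 5 of 7 and rose in 1, and their sums stood at 185.9 and 187.2 CPM against 153.5 and 174.7. A further 5 names on the endothelial list were not found in the count table. Of the 194 genes given with values below, 96 overlap another annotated gene (GENCODE vM21), such as *Col4a1* and *Col4a2*. No source used here gives the strand setting of the counting, so reads of such genes cannot be told apart from those of their neighbours. In bulk RNA, fewer cells of a type and less RNA per cell cannot be told apart.

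Genes were described in 61 lists of functions and families, with 2139 members tested, of which 274 rose (12.8%) and 348 fell (16.3%). Changes ran both ways in most of them. The share that fell was highest for laminins (55.6%), cadherins (46.7%), elastic fibre genes (44.4%), collagens (42.9%) and Wnt target genes (40%), and the share that rose was highest for Sox factors (40%), FGF genes (35.5%) and skeletal and cardiac muscle genes (35.3%). No member rose in the interferon, mitosis, cholesterol and clustered protocadherin lists, where between 8 and 17 members fell. At an unadjusted p under 0.05, and with DESeq2 on all libraries, 1 protocadherin rose and the other 3 lists still had none, but 5 interferon genes rose without WT replicate 2. At the other end, by the test used here none of 50 clustered histone genes (2 rose at an unadjusted p under 0.05, and 1 with DESeq2 on all libraries), 1 of 94 respiratory chain genes and 2 of 50 Polycomb and trithorax genes changed. The histone genes still had a median log2 fold change of 0.34, and 36 of the 50 lay above 0. A histone gene that was not called had no count with the label WT and 907 with the label cKO.

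**Figure D1:**
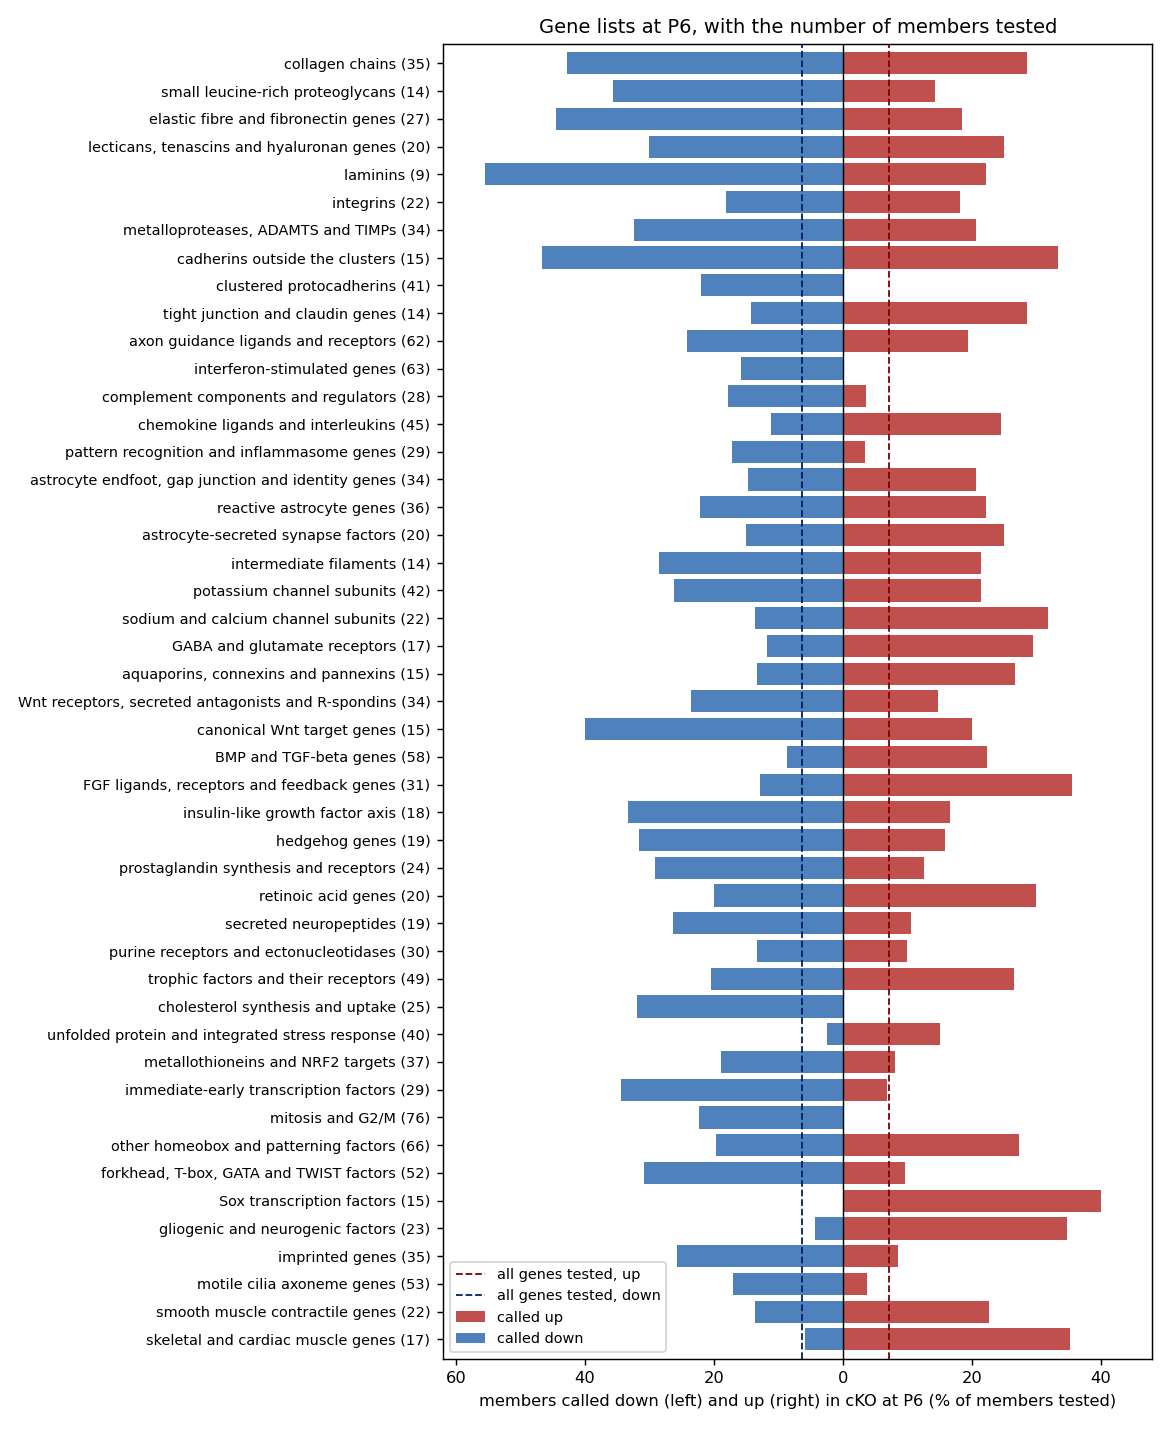
Share of the tested members of each list described in full, in percent on the x axis, that fell (left) or rose (right) at P6 with the label cKO, with lists on the y axis and dashed lines at the shares of all 17938 genes (6.38% and 7.16%). Of the 61 lists, 47 were described in full, by a rule that asks for a share of calls above the background. The others, such as the clustered histone and respiratory chain genes, are not drawn. Laminins, cadherins and elastic fibre genes reach furthest to the left, and Sox, FGF and muscle genes furthest to the right.

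Extracellular matrix genes held many of the largest changes. Of 35 collagen chains, 15 fell and 10 rose, with a median log2 fold change of -0.63, and their summed level went from 17240 and 16960 CPM with the label WT to 10290 and 9943 with the label cKO. *Col3a1* (ENSMUSG00000026043, chromosome 1, 45311538 to 45349706), a chain of fibrillar collagen made by fibroblasts, had 1212 and 1206 CPM with the label WT and 22.8 and 25.9 with the label cKO (log2 fold change -5.63, standard error 0.071, adjusted p = 7.47e-10 by edgeR). *Col6a3*, of the microfibrillar collagen around cells, had 113.8 and 106 CPM with the label WT and 6.44 and 5.62 with the label cKO (log2 fold change -4.19, standard error 0.10, adjusted p = 1.01e-08 by edgeR), and its partner chains *Col6a1* and *Col6a2* fell too. The broad basement membrane chains *Col4a1* and *Col4a2* fell: *Col4a2* went from 1802 and 1702 CPM with the label WT to 441 and 421 with the label cKO (log2 fold change -2.02, standard error 0.037, adjusted p = 5.58e-09 by edgeR). Both WT libraries lay above both cKO libraries for each of these chains, as the labels lay apart for every gene called.

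The rarer basement membrane chains moved the other way. *Col4a3* (ENSMUSG00000079465, chromosome 1, 82586921 to 82722059) went from 7.68 and 8.19 CPM with the label WT to 46.0 and 45.7 with the label cKO (log2 fold change 2.53, standard error 0.14, adjusted p = 1.57e-06 by edgeR) and *Col4a4* from 6.41 and 6.03 CPM with the label WT to 28.0 and 29.3 with the label cKO (log2 fold change 2.21, standard error 0.35, adjusted p = 0.00148 by edgeR), while *Col4a5* and *Col4a6* rose by 0.90 and 0.98 on the log2 scale. These 4 chains build the networks of kidney and other specialised membranes, and the pairs lie head to head in the genome. The cartilage chains *Col2a1* and *Col9a3* also rose, *Col2a1* from 155 and 137 CPM with the label WT to 585 and 546 with the label cKO (log2 fold change 1.95, standard error 0.084, adjusted p = 3.91e-07 by edgeR). Per kilobase of exon, the level of *Col1a1* was 415 CPM with the label WT and 235 with the label cKO, and it fell (log2 fold change -0.82).

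Small leucine-rich proteoglycans, which bind collagen and growth factors, fell in 5 of 14 and rose in 2. *Dcn*, decorin, had 174 and 182 CPM with the label WT and 1.93 and 3.28 with the label cKO (log2 fold change -6.09, standard error 0.19, adjusted p = 4.96e-08 by edgeR). *Lum*, lumican, had 7.21 and 8.57 CPM with the label WT and 0 in both libraries with the label cKO, at least 343-fold lower against a floor of 3 counts over both libraries. *Prelp*, which anchors basement membranes, went the opposite way, from 475 and 446 CPM with the label WT to 2047 and 1887 with the label cKO (log2 fold change 2.10, standard error 0.049, adjusted p = 8.95e-09 by edgeR). The list's summed level was higher with the label cKO, at 4847 and 4492 CPM against 3537 and 3371, and the gain in *Prelp* alone was larger than that difference.

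Elastic fibre and fibronectin genes fell in 12 of 27 and rose in 5. *Fbn2*, a fibrillin of developing microfibrils, had 137 and 139 CPM with the label WT and 4.17 and 3.67 with the label cKO (log2 fold change -5.13, standard error 0.10, adjusted p = 5.58e-09 by edgeR). *Fbln1*, *Emilin1* and *Mfap2*, other microfibril parts, fell by 2.95, 2.38 and 2.30 on the log2 scale. *Ltbp1*, which stores latent TGF-beta in the matrix, rose from 53.1 and 51.8 CPM with the label WT to 176 and 169.5 with the label cKO (log2 fold change 1.72, standard error 0.056, adjusted p = 6.16e-08 by edgeR). *Sparc*, a secreted collagen-binding glycoprotein abundant in astrocytes, rose as well (log2 fold change 0.81).

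Laminins fell in 5 of 9 and rose in 2, with a median of -0.84. *Lama1*, of the early basement membrane and the pia, had 5.73 and 7.26 CPM with the label WT and 0.670 and 0.451 with the label cKO (log2 fold change -3.53, standard error 0.29, adjusted p = 2.68e-05 by edgeR), and *Lama2* had 216 and 192 CPM with the label WT and 62.0 and 66.0 with the label cKO (log2 fold change -1.67, standard error 0.074, adjusted p = 4.51e-07 by edgeR). The integrin chain *Itga3*, a laminin receptor, rose from 154 and 150.8 CPM with the label WT to 612 and 576 with the label cKO (log2 fold change 1.96, standard error 0.056, adjusted p = 3.34e-08 by edgeR), and *Itgb4*, another receptor for epithelial laminin, rose by 1.63 on the log2 scale. *Itga8* and *Itgav*, receptors for fibronectin-like ligands, fell by 1.27 and 0.88 on that scale. Over all 22 integrins the counts were even, with 4 rising and 4 falling.

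Hyaluronan and lectican genes fell in 6 of 20 and rose in 5. *Has2*, the main hyaluronan synthase, had 23.9 and 21.97 CPM with the label WT and 3.87 and 3.22 with the label cKO (log2 fold change -2.69, standard error 0.12, adjusted p = 3.91e-07 by edgeR), and the large hyaluronan-binding proteoglycan *Vcan* had 331 and 263 CPM with the label WT and 80.8 and 92.9 with the label cKO (log2 fold change -1.77, standard error 0.11, adjusted p = 2.89e-06 by edgeR). *Tnc*, tenascin C, a matrix protein of immature and reactive astrocytes, rose from 1031 and 936 CPM with the label WT to 3965 and 3966 with the label cKO (log2 fold change 2.01, standard error 0.044, adjusted p = 8.38e-09 by edgeR), and the brain lectican *Ncan* rose with it (log2 fold change 0.96). Among 34 metalloproteases, ADAMTS enzymes and TIMPs, 11 fell and 7 rose. *Mmp3* (log2 fold change 2.59), *Adamts14* (log2 fold change 1.97) and *Mmp12* (log2 fold change 1.60) rose, whereas *Adamts15* (log2 fold change -2.43), *Adamts2* (log2 fold change -1.48) and *Mmp2* (log2 fold change -1.01) fell. Without WT replicate 1, 4 genes of this protease list rose, and without cKO replicate 1, 6 fell.

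**Figure D2:**
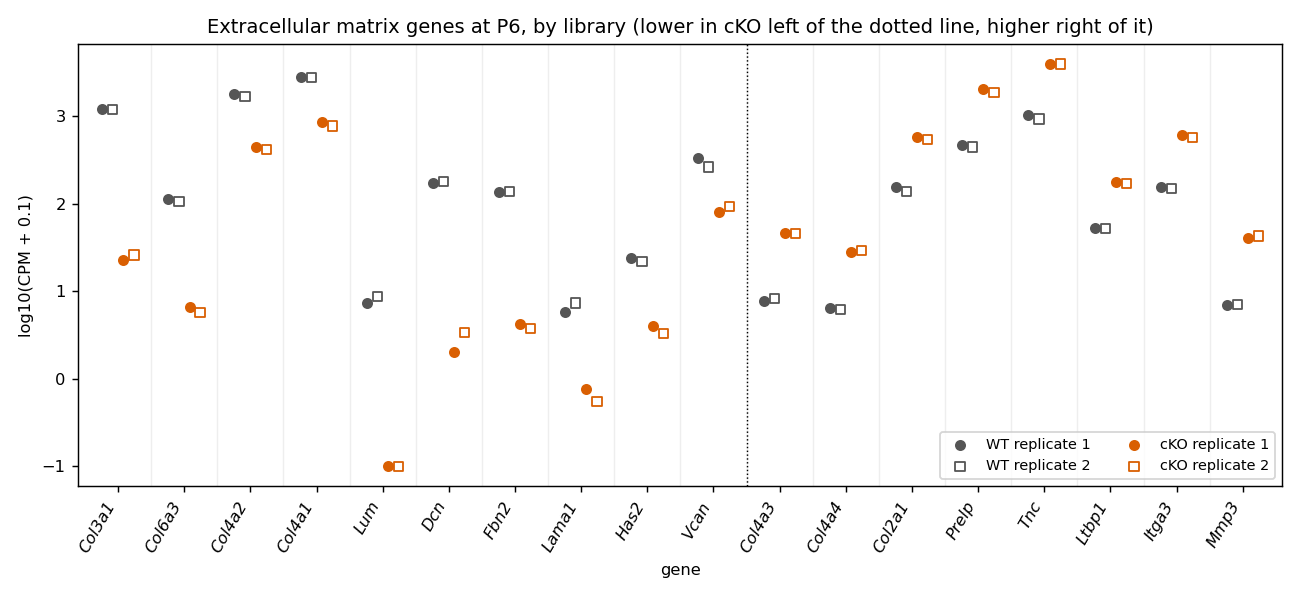
Matrix genes at P6, with genes on the x axis and log10(CPM + 0.1) on the y axis, 1 point for each library and a colour for each label. The 10 genes on the left, from Col3a1 to Vcan, have both WT libraries above both cKO libraries, and the 8 on the right, from Col4a3 to Mmp3, have both below.

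The falling matrix genes moved together with the fibroblast and meningeal markers, of which *Col1a1*, *Col1a2*, *Col3a1*, *Dcn* and *Lum* are themselves members. The part of this cell type in the matrix changes was not tested. At P1 the same lists ran the other way: 13 of the 35 collagen chains and 15 of the 27 elastic fibre genes rose with the label cKO and 0 and 1 fell, while at P8 19 and 14 fell. Over all genes tested, 4.01% rose and 0.892% fell at P1, and 11.2% rose and 8.37% fell at P8.

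Cell adhesion genes changed in both directions. Of 15 cadherins outside the protocadherin clusters, 7 fell and 5 rose. *Cdh5* (ENSMUSG00000031871, chromosome 8, 104101625 to 104144511), the cadherin of endothelial junctions, had 55.8 and 57.0 CPM with the label WT and 1.11 and 0.607 with the label cKO (log2 fold change -6.03, standard error 0.22, adjusted p = 1.22e-07 by edgeR). *Cdh5* belongs to the endothelial markers above, of which 5 of 7 fell and 1 rose. The summed level of these markers changed far less, with a ratio of cKO to WT of 0.88. *Cdh1*, of epithelial junctions, had 4.67 and 4.18 CPM with the label WT and 0.122 and 0.124 with the label cKO (log2 fold change -5.15, standard error 0.27, adjusted p = 1.22e-06 by edgeR), and *Cdh11*, of mesenchymal cells, had 519 and 484 CPM with the label WT and 121 and 117 with the label cKO (log2 fold change -2.07, standard error 0.065, adjusted p = 5.07e-08 by edgeR). Cadherins of neural cells lay on both sides: *Cdh2* (log2 fold change 0.75) and *Cdh4* (log2 fold change 1.07) rose, whereas *Cdh10* (log2 fold change -1.49) and *Cdh18* (log2 fold change -4.74) fell. *Cdh13*, which lacks a cytoplasmic tail, rose from 30.6 and 27.4 CPM with the label WT to 103 and 99.5 with the label cKO (log2 fold change 1.80, standard error 0.10, adjusted p = 2.16e-06 by edgeR).

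Clustered protocadherins, which give single cells their surface identity, fell in 9 of 41 and rose in none by the test used here, with a median of -0.54. A beta cluster member that was not called had no count with the label WT and 368 with the label cKO. The falling members were mostly of the beta cluster: *Pcdhb17* had 11.2 and 11.2 CPM with the label WT and 4.58 and 3.83 with the label cKO (log2 fold change -1.41, standard error 0.14, adjusted p = 8.94e-05 by edgeR), and *Pcdhb16* had 4.70 and 4.13 CPM with the label WT and 1.75 and 1.46 with the label cKO (log2 fold change -1.46, standard error 0.19, adjusted p = 3.93e-04 by edgeR). These genes are related in sequence, and no source used here says how reads that match more than 1 gene were counted. Each level is therefore uncertain. In tight junctions, *Cldn1* rose from 1.40 and 1.31 CPM with the label WT to 6.29 and 5.93 with the label cKO (log2 fold change 2.17, standard error 0.22, adjusted p = 8.85e-05 by edgeR) and the junction adaptor *Cgnl1* fell (log2 fold change -0.97), with 4 rising and 2 falling of 14.

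Axon guidance ligands and receptors fell in 15 of 62 and rose in 12. The repulsive ligand *Sema3d* fell from 50.9 and 48.7 CPM with the label WT to 4.58 and 3.39 with the label cKO (log2 fold change -3.64, standard error 0.20, adjusted p = 1.56e-06 by edgeR) and the ephrin receptor *Epha1* fell from 14.5 and 12.7 CPM with the label WT to 0.746 and 0.544 with the label cKO (log2 fold change -4.39, standard error 0.23, adjusted p = 1.43e-06 by edgeR). Netrin 1, *Ntn1*, rose from 180.1 and 173 CPM with the label WT to 568 and 565 with the label cKO (log2 fold change 1.68, standard error 0.054, adjusted p = 6.15e-08 by edgeR), its receptor *Unc5b* rose (log2 fold change 1.33) and its receptor *Unc5c* fell (log2 fold change -1.66). *Sema3b* (log2 fold change 2.15) and *Sema3f* (log2 fold change 1.61), other class 3 semaphorins, rose, as did the receptors *Ephb2* (log2 fold change 1.41) and *Epha2* (log2 fold change 1.34). Members of 1 ligand or receptor class thus lay on both sides of 0.

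Genes were also grouped by the stem of letters before the first digit of the symbol. Some stems, such as Col and Cdh, repeat lists described above, and a short stem can pool unrelated genes. Of 200 stems, 10 had members that rose, and 11 members that fell, at 3 or more times the background share, and 48 had no call. Genes of the Adam stem fell in 6 of 13 and rose in none, and Arhgap regulators of small GTPases fell in 9 of 34 and rose in 1. Tspan tetraspanins rose in 5 of 18 and fell in 1, and Pde cyclic nucleotide phosphodiesterases rose in 4 of 18 and fell in 2.

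Developmental transcription factors changed in both directions. Of 66 homeobox and patterning factors, 18 rose and 13 fell; of 52 forkhead, T-box, GATA and TWIST factors, 16 fell and 5 rose; of 15 Sox factors, 6 rose and none fell; and of 23 gliogenic and neurogenic factors, 8 rose and 1 fell.

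Among those that fell, *Six2* (ENSMUSG00000024134, chromosome 17, 85684277 to 85688274), a homeobox factor of facial and kidney mesenchyme, had 20.6 and 21.3 CPM with the label WT and 0.213 and 0.140 with the label cKO (log2 fold change -6.87, standard error 0.64, adjusted p = 5.32e-05 by edgeR). *Alx1* and *Alx4*, of craniofacial mesenchyme, had 8.05 and 9.10 CPM with the label WT and 0 and 0.187 with the label cKO and 47.98 and 42.2 CPM with the label WT and 2.63 and 1.37 with the label cKO (log2 fold changes -6.51 and -4.49). *Msx1*, a BMP-responsive homeobox factor, had 34.4 and 31.5 CPM with the label WT and 5.63 and 4.90 with the label cKO (log2 fold change -2.64, standard error 0.11, adjusted p = 3.91e-07 by edgeR). In each of these both WT libraries lay above both cKO libraries, as the labels lay apart for every gene called.

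The forkhead factor *Foxd1* (ENSMUSG00000078302, chromosome 13, 98354242 to 98359305), of stroma and meninges, had 92.3 and 97.0 CPM with the label WT and 1.34 and 0.825 with the label cKO (log2 fold change -6.45, standard error 0.25, adjusted p = 2.31e-07 by edgeR), and *Foxc1*, which meningeal development needs, had 155 and 154 CPM with the label WT and 22.1 and 22.8 with the label cKO (log2 fold change -2.78, standard error 0.15, adjusted p = 1.39e-06 by edgeR). The T-box factor *Tbx18*, of pericytes and mesothelium, had 51.4 and 48.05 CPM with the label WT and 1.78 and 2.18 with the label cKO (log2 fold change -4.65, standard error 0.21, adjusted p = 4.71e-07 by edgeR). *Prdm6*, a repressor in smooth muscle, had 17.6 and 20.2 CPM with the label WT and 0 in both libraries with the label cKO, at least 821-fold lower. *Foxd1*, *Foxc1* and *Zic1* are also fibroblast and meningeal markers, and 10 of the 14 of those fell, with the sums given above; their part in these changes was not tested.

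*Pax2* (ENSMUSG00000004231, chromosome 19, 44756045 to 44837871), a factor of the midbrain-hindbrain boundary and optic stalk, rose from 1.42 and 1.18 CPM with the label WT to 12 and 11.4 with the label cKO (log2 fold change 3.17, standard error 0.24, adjusted p = 1.44e-05 by edgeR). *Gbx2* and *En1*, which pattern the hindbrain and midbrain, rose from 1.20 and 1.11 CPM with the label WT to 5.85 and 5.01 with the label cKO and from 3.44 and 3.12 CPM with the label WT to 12.1 and 11.5 with the label cKO (log2 fold changes 2.23 and 1.84). *Irx2* rose from 7.51 and 6.98 CPM with the label WT to 31.9 and 32.4 with the label cKO (log2 fold change 2.15, standard error 0.16, adjusted p = 1.57e-05 by edgeR) and the related *Irx1* with it (log2 fold change 2.01). *Pax8* was listed at 0 and 0.292 CPM with the label WT and 3.93 and 3.95 with the label cKO (log2 fold change 4.70), a call lost when DESeq2 was run on the P6 libraries alone. These regional factors were under 10 CPM in both WT libraries. Both cKO libraries lay above both WT libraries, as the labels lay apart for every gene called.

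*Foxa2*, a floor plate and endoderm factor, rose from 1.66 and 1.02 CPM with the label WT to 11.4 and 11.03 with the label cKO (log2 fold change 3.07, standard error 0.41, adjusted p = 5.38e-04 by edgeR), as did *Tbx20* from 0.852 and 0.891 CPM with the label WT to 5.82 and 5.82 with the label cKO (log2 fold change 2.74, standard error 0.43, adjusted p = 0.00145 by edgeR). The stem cell and glial factors moved less but from higher levels. *Sox2* had 64.2 and 68.5 CPM with the label WT and 124 and 117 with the label cKO (log2 fold change 0.86, standard error 0.081, adjusted p = 5.90e-05 by edgeR), and *Sox8* had 13.1 and 12.97 CPM with the label WT and 35.6 and 33.1 with the label cKO (log2 fold change 1.39, standard error 0.094, adjusted p = 6.75e-06 by edgeR). *Nfib*, a driver of gliogenesis, had 146 and 150.6 CPM with the label WT and 249.8 and 266 with the label cKO (log2 fold change 0.80, standard error 0.051, adjusted p = 4.28e-06 by edgeR), *Nfix* rose too (log2 fold change 0.71), and *Lhx2* rose by 0.84 on the log2 scale. *Olig1* was the member of the gliogenic list that fell (log2 fold change -0.66), and without WT replicate 1, 5 members of that list rose.

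**Figure D3:**
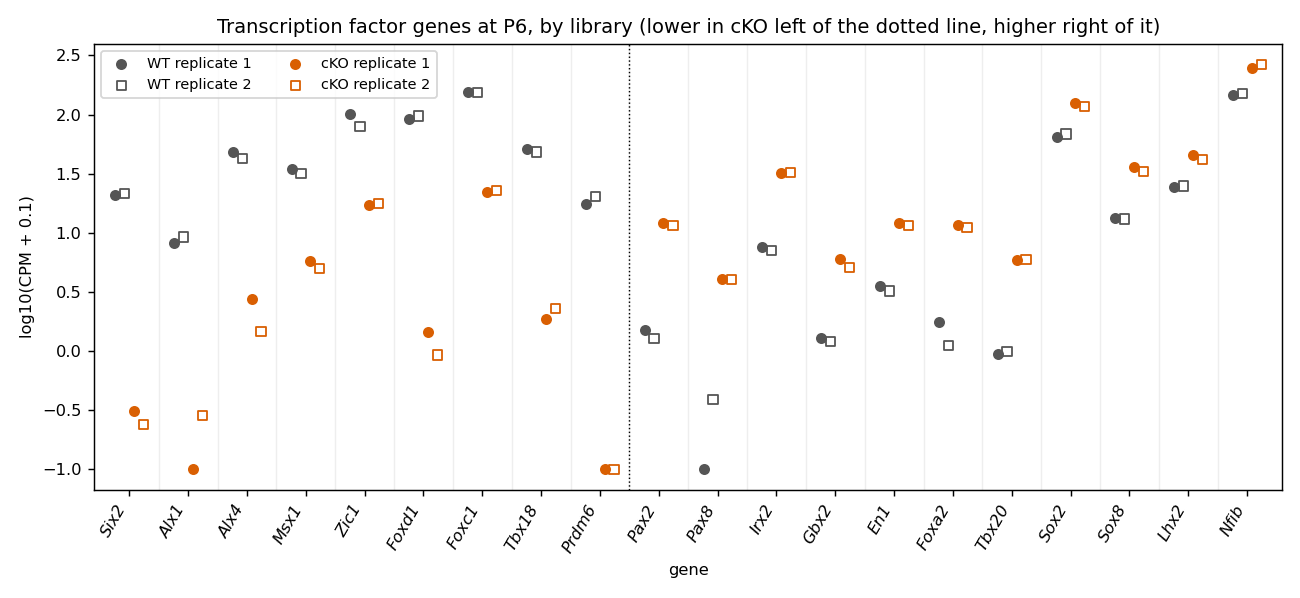
Transcription factors at P6, with genes on the x axis and log10(CPM + 0.1) on the y axis, 1 point for each library and a colour for each label. The 9 genes on the left, from Six2 to Prdm6, are lower in both cKO libraries, and the 11 on the right, from Pax2 to Nfib, are higher in both.

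Imprinted genes, expressed from 1 parental copy and rich in growth regulators, fell in 9 of 35 and rose in 3. *Igf2* (ENSMUSG00000048583, chromosome 7, 142650766 to 142666816), the fetal growth factor, had 1038 and 1062 CPM with the label WT and 3.87 and 2.96 with the label cKO (log2 fold change -8.26, standard error 0.92, adjusted p = 1.78e-04 by edgeR), and the neighbouring non-coding *H19*, expressed from the other parental copy, had 186 and 189 CPM with the label WT and 1.43 and 0.856 with the label cKO (log2 fold change -7.35, standard error 0.21, adjusted p = 3.19e-08 by edgeR). *Grb10*, an inhibitor of insulin signalling, had 574 and 536 CPM with the label WT and 106 and 98.0 with the label cKO (log2 fold change -2.44, standard error 0.055, adjusted p = 8.39e-09 by edgeR), and *Plagl1* and *Peg3*, regulators of the imprinted network, fell by 1.65 and 1.55 on the log2 scale. *Mest* rose from 89.6 and 93.2 CPM with the label WT to 590.3 and 564 with the label cKO (log2 fold change 2.66, standard error 0.060, adjusted p = 8.39e-09 by edgeR). The 9 that fell at P6 were all lower at P8 too, and *Igf2* had a log2 fold change of 5.44 at P1 and -6.53 at P8. *Dcn* is a member of this list and of the fibroblast markers.

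Growth factor signalling changed at ligands, receptors and feedback genes. Of 31 FGF genes, 11 rose and 4 fell, with a median of 0.58. The ligand *Fgf1* rose from 30.2 and 25.3 CPM with the label WT to 103 and 104 with the label cKO (log2 fold change 1.90, standard error 0.12, adjusted p = 4.45e-06 by edgeR), and *Fgf7*, a ligand made by mesenchyme, fell from 125 and 116 CPM with the label WT to 16.8 and 22.1 with the label cKO (log2 fold change -2.63, standard error 0.28, adjusted p = 1.21e-04 by edgeR). The feedback inhibitors *Spry4* (log2 fold change 1.22) and *Spry2* (log2 fold change 0.91) rose, and *Dusp4*, a phosphatase of the same pathway, fell (log2 fold change -0.90). Without WT replicate 2 or without cKO replicate 2, 7 FGF genes rose, and without cKO replicate 2, 2 fell.

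The insulin-like growth factor axis fell in 6 of 18 and rose in 3. Beside *Igf2*, the binding protein *Igfbp6* fell from 68.7 and 76.8 CPM with the label WT to 2.06 and 2.15 with the label cKO (log2 fold change -5.11, standard error 0.16, adjusted p = 5.17e-08 by edgeR) and *Igfbp7* fell from 245 and 247 CPM with the label WT to 82.7 and 74.7 with the label cKO (log2 fold change -1.64, standard error 0.051, adjusted p = 4.98e-08 by edgeR). *Igfbp3*, another binding protein, rose from 378 and 395 CPM with the label WT to 1024 and 945 with the label cKO (log2 fold change 1.35, standard error 0.048, adjusted p = 1.15e-07 by edgeR). The binding proteins thus moved in different directions.

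Hedgehog ligands rose, while the pathway's transcription factors *Gli1* and *Gli2* fell. *Shh* (ENSMUSG00000002633, chromosome 5, 28456815 to 28467256) went from 61.5 and 62.8 CPM with the label WT to 166 and 165 with the label cKO (log2 fold change 1.41, standard error 0.12, adjusted p = 3.63e-05 by edgeR) and *Dhh* from 0.489 and 1.49 CPM with the label WT to 14.9 and 13.9 with the label cKO (log2 fold change 3.85, standard error 0.45, adjusted p = 2.42e-04 by edgeR). *Gli1*, a transcription factor and direct target of the pathway, went from 19.8 and 20.3 CPM with the label WT to 0.457 and 0.187 with the label cKO (log2 fold change -5.95, standard error 0.30, adjusted p = 1.01e-06 by edgeR), and *Gli2* from 14.9 and 14.3 CPM with the label WT to 2.94 and 3.30 with the label cKO (log2 fold change -2.23, standard error 0.14, adjusted p = 4.91e-06 by edgeR). The co-receptors *Cdon* (log2 fold change -1.67) and *Gas1* (log2 fold change -1.45) also fell, and 6 of 19 members fell and 3 rose in all.

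Wnt receptors and secreted modulators fell in 8 of 34 and rose in 5. The R-spondins *Rspo2* and *Rspo3*, which strengthen Wnt signals, fell: *Rspo2* had 13.7 and 14.0 CPM with the label WT and 0.959 and 0.311 with the label cKO (log2 fold change -4.44, standard error 0.41, adjusted p = 5.58e-05 by edgeR). *Ror2*, a receptor of the non-canonical branch, had 35.3 and 32.5 CPM with the label WT and 2.19 and 2.16 with the label cKO (log2 fold change -3.96, standard error 0.14, adjusted p = 9.82e-08 by edgeR). *Lgr6*, a receptor for R-spondins, rose from 3.96 and 3.39 CPM with the label WT to 23.6 and 21.6 with the label cKO (log2 fold change 2.62, standard error 0.21, adjusted p = 2.17e-05 by edgeR). Of 15 canonical target genes, 6 fell and 3 rose: *Nkd2* fell (log2 fold change -1.15), whereas *Ccnd1*, which is also a general growth gene, rose from 1892 and 1888 CPM with the label WT to 4018 and 3853 with the label cKO (log2 fold change 1.06, standard error 0.028, adjusted p = 1.83e-08 by edgeR) and *Tcf7* rose (log2 fold change 1.25). Without WT replicate 2, 3 target genes fell, and without cKO replicate 2, 5 receptor and modulator genes fell.

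BMP and TGF-beta genes rose in 13 of 58 and fell in 5. *Gdf6* (ENSMUSG00000051279, chromosome 4, 9844372 to 9862345), a ligand of the BMP family, rose from 1.99 and 2.19 CPM with the label WT to 43.8 and 41.2 with the label cKO (log2 fold change 4.34, standard error 0.25, adjusted p = 2.51e-06 by edgeR), and *Bmpr1b*, a receptor, rose from 7.02 and 7.65 CPM with the label WT to 22.3 and 20.6 with the label cKO (log2 fold change 1.55, standard error 0.15, adjusted p = 6.44e-05 by edgeR). *Gdf10*, another ligand, fell from 9.48 and 10.7 CPM with the label WT to 0.426 and 0.389 with the label cKO (log2 fold change -4.62, standard error 0.13, adjusted p = 3.46e-08 by edgeR), and *Bmper*, a secreted modulator, fell (log2 fold change -2.16). Without WT replicate 2, 3 genes of this list fell.

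Prostaglandin genes fell in 7 of 24 and rose in 3. The inducible cyclooxygenase *Ptgs2* (ENSMUSG00000032487, chromosome 1, 150100031 to 150108227) had 387 and 358 CPM with the label WT and 34.4 and 28.2 with the label cKO (log2 fold change -3.57, standard error 0.10, adjusted p = 3.19e-08 by edgeR), and the synthases downstream of it fell further: *Ptges*, for prostaglandin E2, had 62.0 and 56.7 CPM with the label WT and 1.63 and 2.29 with the label cKO (log2 fold change -4.92, standard error 0.17, adjusted p = 1.07e-07 by edgeR) and *Ptgis*, for prostacyclin, had 62.0 and 67.0 CPM with the label WT and 0 and 0.280 with the label cKO (log2 fold change -8.84, standard error 0.64, adjusted p = 1.09e-05 by edgeR). *Ptgs1*, the constitutive cyclooxygenase, rose from 8.65 and 8.64 CPM with the label WT to 51.0 and 51.7 with the label cKO (log2 fold change 2.57, standard error 0.079, adjusted p = 4.72e-08 by edgeR). The summed level of the list was 1136 and 1091 CPM with the label WT and 594.6 and 642.2 with the label cKO.

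Retinoic acid genes rose in 6 of 20 and fell in 4. *Cyp26b1*, which degrades retinoic acid, fell from 219 and 212 CPM with the label WT to 14.6 and 16.6 with the label cKO (log2 fold change -3.79, standard error 0.076, adjusted p = 5.58e-09 by edgeR). The synthesising enzyme *Aldh1a1* rose from 213 and 211 CPM with the label WT to 629 and 620.1 with the label cKO (log2 fold change 1.56, standard error 0.064, adjusted p = 3.00e-07 by edgeR), and *Aldh1a2*, the enzyme of meninges, fell (log2 fold change -1.75). The retinol dehydrogenase *Rdh5* rose (log2 fold change 2.35). Of the binding proteins, *Crabp1* rose (log2 fold change 2.31) and *Crabp2* fell (log2 fold change -2.89), and *Aldh1a2* and *Crabp2* are among the meningeal markers.

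Trophic factors and their receptors rose in 13 of 49 and fell in 10. *Egfr*, the receptor for epidermal growth factor, fell from 329 and 299 CPM with the label WT to 84.4 and 90.3 with the label cKO (log2 fold change -1.85, standard error 0.056, adjusted p = 4.72e-08 by edgeR), while its ligands *Hbegf*, from 284 and 278 CPM with the label WT to 738 and 663 with the label cKO (log2 fold change 1.32, standard error 0.072, adjusted p = 1.60e-06 by edgeR), and *Tgfa* (log2 fold change 1.55) rose. *Gdnf*, a survival factor for dopaminergic and motor neurons, rose from 4.56 and 3.69 CPM with the label WT to 14.1 and 15.3 with the label cKO (log2 fold change 1.83, standard error 0.13, adjusted p = 1.06e-05 by edgeR), and its family's receptor *Gfra2* rose (log2 fold change 2.02). *Lif*, a gliogenic cytokine, rose from 64.7 and 61.9 CPM with the label WT to 246 and 174 with the label cKO (log2 fold change 1.73, standard error 0.15, adjusted p = 2.96e-05 by edgeR). *Ngfr* (log2 fold change -1.91), the low-affinity neurotrophin receptor, and *Erbb3* (log2 fold change -2.24) fell, and both are Schwann and neural crest markers, of which 4 of 9 fell (64.0 and 68.8 CPM in sum with the label WT, 43.1 and 48.6 with the label cKO). Without cKO replicate 1, 6 trophic genes fell.

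Secreted neuropeptides fell in 5 of 19 and rose in 2. *Edn1*, endothelin 1, rose from 3.61 and 5.52 CPM with the label WT to 21.6 and 18.9 with the label cKO (log2 fold change 2.15, standard error 0.20, adjusted p = 4.84e-05 by edgeR), and *Scg3*, of secretory granules, fell from 49.0 and 47.8 CPM with the label WT to 16.2 and 19.9 with the label cKO (log2 fold change -1.42, standard error 0.11, adjusted p = 1.63e-05 by edgeR). Among 30 purine receptors and ectonucleotidases, 4 fell and 3 rose. *Enpp1*, which makes AMP and pyrophosphate from ATP outside the cell, fell from 135 and 120.5 CPM with the label WT to 18.6 and 20.3 with the label cKO (log2 fold change -2.72, standard error 0.13, adjusted p = 5.86e-07 by edgeR), and the ATP-gated channel *P2rx7* rose (log2 fold change 1.11).

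Functions particular to astrocytes changed gene by gene rather than as a block. Endfoot, gap junction and identity genes rose in 7 of 34 and fell in 5, and glutamate uptake and glutamine cycle genes fell in 3 of 18 with none rising. The urea transporter *Slc14a1* (ENSMUSG00000059336, chromosome 18, 78100091 to 78142119) rose from 7.65 and 5.81 CPM with the label WT to 28.0 and 26.7 with the label cKO (log2 fold change 2.02, standard error 0.13, adjusted p = 5.62e-06 by edgeR). *Gpr37l1*, a receptor of astrocytes, rose as well (log2 fold change 1.54). *Gjb2*, a connexin shared with meninges, fell from 5.21 and 5.52 CPM with the label WT to 0.183 and 0.187 with the label cKO (log2 fold change -4.85, standard error 0.24, adjusted p = 9.45e-07 by edgeR), and the astrocyte gene *Ndrg2* fell from 23.8 and 25.8 CPM with the label WT to 8.01 and 9.68 with the label cKO (log2 fold change -1.49, standard error 0.11, adjusted p = 1.50e-05 by edgeR).

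Reactive astrocyte genes were split evenly, with 8 rising and 8 falling of 36. *Osmr*, the oncostatin M receptor, fell from 143 and 142 CPM with the label WT to 52.98 and 61.7 with the label cKO (log2 fold change -1.31, standard error 0.064, adjusted p = 8.68e-07 by edgeR). *Cp*, the ferroxidase ceruloplasmin, rose from 179 and 169 CPM with the label WT to 476 and 505 with the label cKO (log2 fold change 1.49, standard error 0.052, adjusted p = 9.89e-08 by edgeR). *Vim* (log2 fold change 0.66) and *Nes*, intermediate filaments of immature astrocytes and stem cells, rose, *Nes* from 839 and 889.5 CPM with the label WT to 2042 and 2015 with the label cKO (log2 fold change 1.23, standard error 0.041, adjusted p = 7.35e-08 by edgeR). *Vim*, *Nes* and *Sox2* belong to the neural stem cell markers, whose summed level was higher in both cKO libraries.

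Secreted factors that act on synapses rose in 5 of 20 and fell in 3. The thrombospondins differed: *Thbs2* fell from 1401 and 1339 CPM with the label WT to 414 and 426 with the label cKO (log2 fold change -1.71, standard error 0.035, adjusted p = 5.58e-09 by edgeR), and *Thbs1* rose from 2913 and 2716 CPM with the label WT to 5785 and 5640 with the label cKO (log2 fold change 1.02, standard error 0.035, adjusted p = 9.89e-08 by edgeR). *Megf10*, a phagocytic receptor with which astrocytes take up synapses, rose from 32.1 and 39.1 CPM with the label WT to 111 and 121 with the label cKO (log2 fold change 1.70, standard error 0.10, adjusted p = 2.95e-06 by edgeR). The list's summed level was 9233 and 9020 CPM with the label WT and 14290 and 13610 with the label cKO.

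Ion channel genes changed often. Potassium channel subunits fell in 11 of 42 and rose in 9, sodium and calcium channel subunits rose in 7 of 22 and fell in 3, and GABA and glutamate receptor subunits rose in 5 of 17 and fell in 2. Of the 5 neuron markers tested, none of them at 0 with either label, 3 rose. Their sums were 220.1 and 185.4 CPM with the label WT and 401.3 and 404.9 with the label cKO. A further 10 names on the neuron marker list were not found in the count table and could not be tested. The part of neurons in these counts was not tested. The inward rectifier *Kcnj15* fell from 9.97 and 5.56 CPM with the label WT to 0.350 and 0.591 with the label cKO (log2 fold change -4.04, standard error 0.36, adjusted p = 4.47e-05 by edgeR). *Kcnf1*, a silent modulatory subunit, rose from 15.4 and 11.9 CPM with the label WT to 66.0 and 62.8 with the label cKO (log2 fold change 2.24, standard error 0.13, adjusted p = 2.37e-06 by edgeR). The T-type calcium channel *Cacna1g* fell from 32.7 and 28.4 CPM with the label WT to 1.25 and 1.65 with the label cKO (log2 fold change -4.40, standard error 0.32, adjusted p = 1.17e-05 by edgeR), and the sodium leak channel *Nalcn* rose from 31.2 and 28.1 CPM with the label WT to 97.8 and 101 with the label cKO (log2 fold change 1.74, standard error 0.090, adjusted p = 1.22e-06 by edgeR). Without WT replicate 1 the potassium channel counts were 5 up and 7 down, without cKO replicate 1 6 fell, and without cKO replicate 2 5 rose. The count of rising GABA and glutamate receptor genes was 3, 1 and 2 without WT replicate 1, WT replicate 2 and cKO replicate 2. *Aqp1*, a water channel of choroid plexus, fell from 39.8 and 39.01 CPM with the label WT to 1.60 and 2.27 with the label cKO (log2 fold change -4.35, standard error 0.17, adjusted p = 2.08e-07 by edgeR); it is a choroid plexus marker, and of that list 3 of 9 rose and 2 fell.

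Muscle and cilia genes were among the lists outside glial function that changed. Skeletal and cardiac muscle genes rose in 6 of 17 and fell in 1. *Casq1*, the calcium-binding protein of the sarcoplasmic reticulum, rose from 40.1 and 44.6 CPM with the label WT to 771 and 696 with the label cKO (log2 fold change 4.11, standard error 0.088, adjusted p = 7.10e-09 by edgeR), and the other risers of that list stayed under 5 CPM. Smooth muscle genes rose in 5 of 22 and fell in 3: the enteric actin *Actg2* fell from 155 and 156 CPM with the label WT to 4.33 and 3.38 with the label cKO (log2 fold change -5.34, standard error 0.15, adjusted p = 3.30e-08 by edgeR), and *Cnn1*, calponin, rose (log2 fold change 0.85). *Cnn1* is also a mural marker, of which 5 of 10 fell and 2 rose. The motif CCWWWWWWGG, where W is A or T, was in 0 of the 2 falling smooth muscle genes with a promoter. It was in 4 of 11 not called, beside 1.81% of all promoters. Genes of the motile cilia axoneme fell in 9 of 53 and rose in 2, with *Dnah5* at 4.07 and 3.75 CPM with the label WT and 0.853 and 0.638 with the label cKO (log2 fold change -2.39, standard error 0.22, adjusted p = 4.86e-05 by edgeR) and *Dnaic1* rising (log2 fold change 2.28).

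Immune genes changed in both directions. Interferon-stimulated genes fell in 10 of 63 and rose in none, chemokines and interleukins rose in 11 of 45 and fell in 5, complement genes fell in 5 of 28 and rose in 1, and pattern recognition genes fell in 5 of 29 and rose in 1. Interferon-stimulated genes are switched on by STAT and IRF factors, which bind elements with repeats of GAAA. The promoters of 4 members that fell are shown, since they hold such an element, namely GAAA, any 2 bases (NN) and GAAA again, in capitals. The sequences are from RefSeq on GRCm38.p6, end before the annotated start of transcription and read 5′ to 3′ on the gene's own strand: *Tgtp2* at chr11:49064238-49064317 on the minus strand, *Tgtp1* at chr11:48992279-48992358 on the minus strand, *Oas3* at chr5:120777690-120777769 on the minus strand and *Irgm1* at chr11:48871421-48871485 on the minus strand.
Tgtp2: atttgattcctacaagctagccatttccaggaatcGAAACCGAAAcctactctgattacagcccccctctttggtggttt
Tgtp1: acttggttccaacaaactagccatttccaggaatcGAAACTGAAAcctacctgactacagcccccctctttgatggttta
Oas3: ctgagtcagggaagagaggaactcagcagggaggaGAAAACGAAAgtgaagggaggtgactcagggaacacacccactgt
Irgm1: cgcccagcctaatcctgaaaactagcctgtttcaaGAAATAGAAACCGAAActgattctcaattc

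On either strand this element occurred in 3.99% of 27025 promoters of the same length and in 29 of the 47 interferon-stimulated genes with a promoter in the tables. It was in 5 of 9 members that fell and in 24 of 38 that were not called. A match of letters is a description and not a bound site.

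*Tgtp2* and *Tgtp1*, GTPases of the cell-autonomous defence, had 19.7 and 43.0 CPM with the label WT and 1.11 and 1.06 with the label cKO (log2 fold change -4.85, standard error 0.36, adjusted p = 1.20e-05 by edgeR) and 19.1 and 39.6 CPM with the label WT and 2.47 and 1.70 with the label cKO (log2 fold change -3.82, standard error 0.33, adjusted p = 3.58e-05 by edgeR). Both are close copies, as the printed promoters show, and reads may be split between them. *Irgm1*, a related GTPase, had 123.4 and 233 CPM with the label WT and 64.6 and 58.6 with the label cKO (log2 fold change -1.53, standard error 0.24, adjusted p = 0.00151 by edgeR), and *Ifitm1*, a restriction factor at membranes, had 47.4 and 49.9 CPM with the label WT and 19.6 and 14.9 with the label cKO (log2 fold change -1.49, standard error 0.14, adjusted p = 4.69e-05 by edgeR). *Oas3*, a sensor of double-stranded RNA, had 5.46 and 12.8 CPM with the label WT and 3.61 and 2.38 with the label cKO (log2 fold change -1.60, standard error 0.43, adjusted p = 0.0219 by edgeR), and its call was lost without WT replicate 2 or cKO replicate 2.

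WT replicate 2 stood above WT replicate 1 for 61 of the 63 genes, and the list summed to 2400 and 4468 CPM with the label WT and 2709 and 2318 with the label cKO. The median of the list and its count of falling genes rest on WT replicate 2. The median log2 fold change was -0.51 with all libraries, 0.09 without WT replicate 2 and -1.08 without WT replicate 1, and 5 and 43 members fell in these cases. *Tgtp2*, *Tgtp1*, *Irgm1* and *Ifitm1* fell whichever WT library was left out, and 5 members rose without WT replicate 2.

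**Figure D4:**
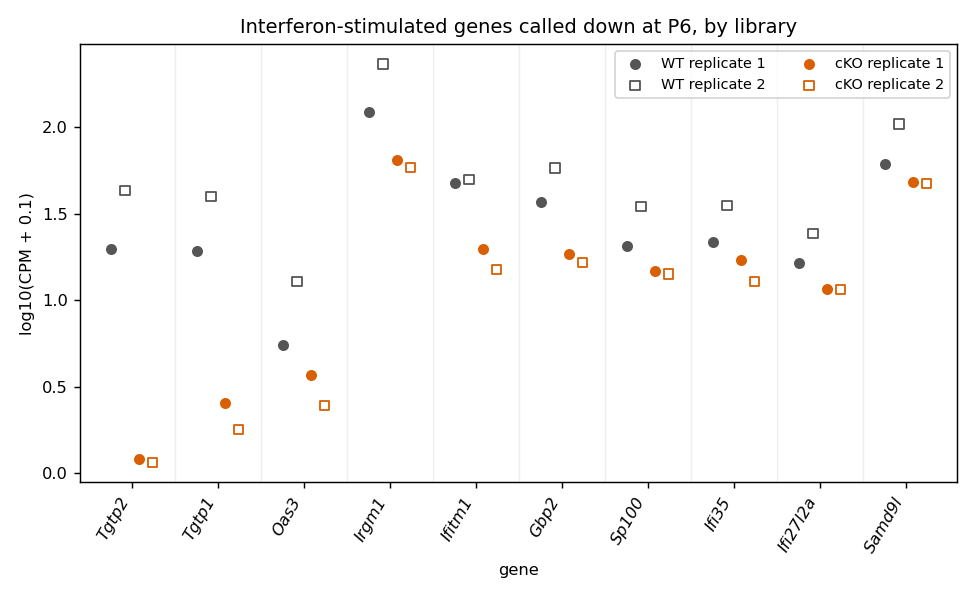
The 10 interferon-stimulated genes that fell at P6, with genes on the x axis and log10(CPM + 0.1) on the y axis, 1 point for each library and a colour for each label. Both WT libraries lie above both cKO libraries for each gene, and WT replicate 2 is the highest library for each.

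Of the chemokines and interleukins, *Csf1*, the growth factor of microglia, rose from 421 and 434 CPM with the label WT to 1018 and 941 with the label cKO (log2 fold change 1.20, standard error 0.041, adjusted p = 8.43e-08 by edgeR), and *Il34*, the other ligand of the same receptor, rose from 11.5 and 9.91 CPM with the label WT to 31.8 and 30.7 with the label cKO (log2 fold change 1.54, standard error 0.15, adjusted p = 6.29e-05 by edgeR). *Il6* rose from 1.15 and 0.891 CPM with the label WT to 4.95 and 4.95 with the label cKO (log2 fold change 2.28, standard error 0.19, adjusted p = 2.40e-05 by edgeR). The monocyte chemokine *Ccl7* fell (log2 fold change -1.24). Without WT replicate 1 or without cKO replicate 1, 3 genes of the list fell. Of the complement genes, *Clu*, clusterin, an extracellular chaperone, rose from 222 and 255 CPM with the label WT to 572 and 524 with the label cKO (log2 fold change 1.20, standard error 0.087, adjusted p = 1.12e-05 by edgeR). *Tlr8*, an endosomal RNA sensor, fell (log2 fold change -1.07), and *Clec7a*, a receptor for fungal glucans, rose (log2 fold change 1.52). Microglial markers summed to higher levels in both cKO libraries, while border macrophage markers fell in 4 of 8, from 2150 and 2064 CPM to 1522 and 1575; the part of these cells was not tested.

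The cholesterol genes that changed all fell, each by less than 2-fold. Of 25 genes of synthesis and uptake, 8 fell and none rose, and the median was -0.50. Both WT libraries lay above both cKO libraries for 18 of them and below for 2. Over all genes tested, the labels lay apart in either direction for 59.0%. The summed level was 2144 and 2202 CPM with the label WT and 1645 and 1615 with the label cKO. *Hmgcs1* (ENSMUSG00000093930, chromosome 13, 119690379 to 119708260), an early enzyme of the mevalonate pathway, had 329.7 and 339 CPM with the label WT and 180.0 and 188 with the label cKO (log2 fold change -0.86, standard error 0.067, adjusted p = 1.74e-05 by edgeR). At a fold change of 2, no member of the list was called.

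Genes against oxidative stress fell in 7 of 37 and rose in 3. *Slc7a11* (ENSMUSG00000027737, chromosome 3, 49892526 to 50443614), the cystine importer that feeds glutathione synthesis, had 278 and 251 CPM with the label WT and 10.7 and 12.2 with the label cKO (log2 fold change -4.53, standard error 0.093, adjusted p = 5.58e-09 by edgeR), and *Nqo1*, a quinone reductase, had 59.0 and 50.8 CPM with the label WT and 7.90 and 7.84 with the label cKO (log2 fold change -2.80, standard error 0.15, adjusted p = 1.28e-06 by edgeR). *G6pdx*, which makes NADPH, had 106 and 106 CPM with the label WT and 62.4 and 59.1 with the label cKO (log2 fold change -0.80, standard error 0.044, adjusted p = 1.72e-06 by edgeR). *Sod3*, the secreted superoxide dismutase, rose from 87.9 and 77.0 CPM with the label WT to 206 and 181 with the label cKO (log2 fold change 1.23, standard error 0.089, adjusted p = 1.12e-05 by edgeR). The motif TGACNNNGC, the core of the element that NRF2 binds, was on either strand in 14.0% of all promoters, in 13 of 31 of these genes with a promoter, in 5 of 7 that fell and in 8 of 22 not called. In the stress response list *Slc7a11* was the member of 40 that fell and 6 rose, among them *Chac1*, which degrades glutathione (log2 fold change 1.45), and *Vldlr* (log2 fold change 1.49).

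Immediate-early transcription factors, which cells induce within minutes of a stimulus, fell in 10 of 29 and rose in 2. *Nr4a2* had 11.4 and 10.02 CPM with the label WT and 3.53 and 3.33 with the label cKO (log2 fold change -1.64, standard error 0.22, adjusted p = 5.85e-04 by edgeR), and *Egr3* had 188 and 182 CPM with the label WT and 81.2 and 62.3 with the label cKO (log2 fold change -1.37, standard error 0.17, adjusted p = 3.17e-04 by edgeR). *Fosl2*, a partner in AP-1, had 316 and 296 CPM with the label WT and 182 and 162 with the label cKO (log2 fold change -0.83, standard error 0.069, adjusted p = 2.49e-05 by edgeR). *Ctgf*, a matricellular target of YAP and TGF-beta, rose from 993 and 969.7 CPM with the label WT to 1914 and 1752 with the label cKO (log2 fold change 0.90, standard error 0.042, adjusted p = 5.91e-07 by edgeR). Without cKO replicate 2, 6 fell, and the call of *Egr2* was lost with each library left out. The motif TGACGTCA was in 0 of the 9 falling genes with a promoter and in 2 of 10 not called. CCWWWWWWGG was in 1 of those 9 and 1 of those 10. They occurred in 2.03% and 1.81% of all promoters.

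Mitosis genes fell in 17 of 76 and rose in none. The changes were small, with a median of -0.48. Both WT libraries lay above both cKO libraries for 65 of the 76 and below for 1, beside 59.0% of all genes in either direction. The summed level was 2925 and 2840 CPM with the label WT and 2187 and 2183 with the label cKO. Many such genes share the element TTTGAA, bound by the complexes that hold them silent outside division. It is shown, in capitals as its reverse complement TTCAAA where that lies on the gene's strand, in the promoters of 4 members that fell, from RefSeq on GRCm38.p6 and ending before the start: *Cenpn* at chr8:116921696-116921739 on the plus strand, *Kif11* at chr19:37376328-37376381 on the plus strand, *Kif22* at chr7:127042595-127042670 on the minus strand and *Kif2c* at chr4:117178835-117178910 on the minus strand.
Cenpn: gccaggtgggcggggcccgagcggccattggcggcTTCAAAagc
Kif11: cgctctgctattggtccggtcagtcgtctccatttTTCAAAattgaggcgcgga
Kif22: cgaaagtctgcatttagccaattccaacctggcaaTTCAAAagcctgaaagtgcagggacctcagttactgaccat
Kif2c: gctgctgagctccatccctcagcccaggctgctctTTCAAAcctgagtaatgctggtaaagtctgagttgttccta

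TTTGAA is short and occurred on either strand in 20.2% of all promoters. It was in 42 of the 64 mitosis genes with a promoter, in all 15 that fell and in 27 of 49 that were not called. A related motif that was also sought, TTCGAA, was in 1 of the 15 and 5 of the 49, beside 1.8% of all promoters. *Knl1*, of the outer kinetochore, had 25.3 and 22.4 CPM with the label WT and 11.3 and 10.9 with the label cKO (log2 fold change -1.10, standard error 0.19, adjusted p = 0.00230 by edgeR), and the mitotic kinase *Aurkb* had 18.9 and 16.9 CPM with the label WT and 9.30 and 9.52 with the label cKO (log2 fold change -0.93, standard error 0.14, adjusted p = 0.00108 by edgeR). The spindle motor *Kif11* had 27.9 and 27.2 CPM with the label WT and 16.3 and 16.4 with the label cKO (log2 fold change -0.75, standard error 0.094, adjusted p = 3.43e-04 by edgeR). The calls of *Kif22* and *Kif2c* were lost without cKO replicate 2, and at a fold change of 2 *Knl1* alone was called.

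Other general functions had few calls. Of 58 DNA replication genes 3 fell and 1 rose, while 46 had both WT libraries above both cKO libraries and 4 had both below. Of 78 cytosolic ribosomal protein genes 4 fell, yet 71 had both WT libraries above both cKO libraries and 0 had both below. For all genes tested, the share lying apart in either direction was 59.0%. The median of the ribosomal genes was -0.36, with a summed level of 17450 and 18530 CPM against 14630 and 13370. That median lay between -0.30 and -0.42 under every alternative scaling or set of libraries tried. The scalings used place the bulk of genes near 0, so the median of all genes, within 0.01 of 0, follows from them. The part of scaling in the ribosomal shift was not tested. Without cKO replicate 1, 10 ribosomal genes fell. Among 234 solute carriers 27 rose and 24 fell, among 40 glycolysis genes 4 and 3, among 42 lipid genes 4 and 4, and among 24 Notch genes 1 and 2. Without WT replicate 2 or without cKO replicate 1, 2 lipid genes rose.

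The genotype effect at P6 was set beside those at P1 and P8. Direct tests of the difference found 2746 genes (15.3%) whose effect differed between P6 and P1 and 3849 (21.5%) between P6 and P8, at an adjusted p under 0.05. The P6 libraries enter both tests. Of the 2428 genes called at P6, 642 differed from both ages in 1 direction, 396 of them more negative at P6 and 246 more positive, and 648 differed from neither. Of the 1144 genes that fell at P6, 223 rose at P1 and 50 fell there, while 567 fell and 121 rose at P8. Of the 1284 that rose at P6, 284 rose at P1 and 681 at P8.

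Members that fell at P6 and rose at P1 came from lists of several kinds. Of the falling members, 8 of 15 collagen chains, 7 of 12 elastic fibre genes, 4 of 5 laminins, 10 of 16 forkhead and T-box factors and 5 of 13 homeobox factors rose at P1, as did 4 of 7 prostaglandin genes, 3 of 6 genes of the insulin-like growth factor axis, 4 of 9 imprinted genes, 2 of 4 retinoic acid genes and 2 of 4 purine genes. Over all genes that fell at P6, 19.5% rose at P1. *Col3a1* had a log2 fold change of 3.52 at P1, -5.63 at P6 and -2.11 at P8. The medians of interferon genes were 0.05, -0.51 and 0.75 at P1, P6 and P8, those of mitosis genes -0.26, -0.48 and -0.14, and those of cholesterol genes -0.04, -0.50 and -0.30.

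**Figure D5:**
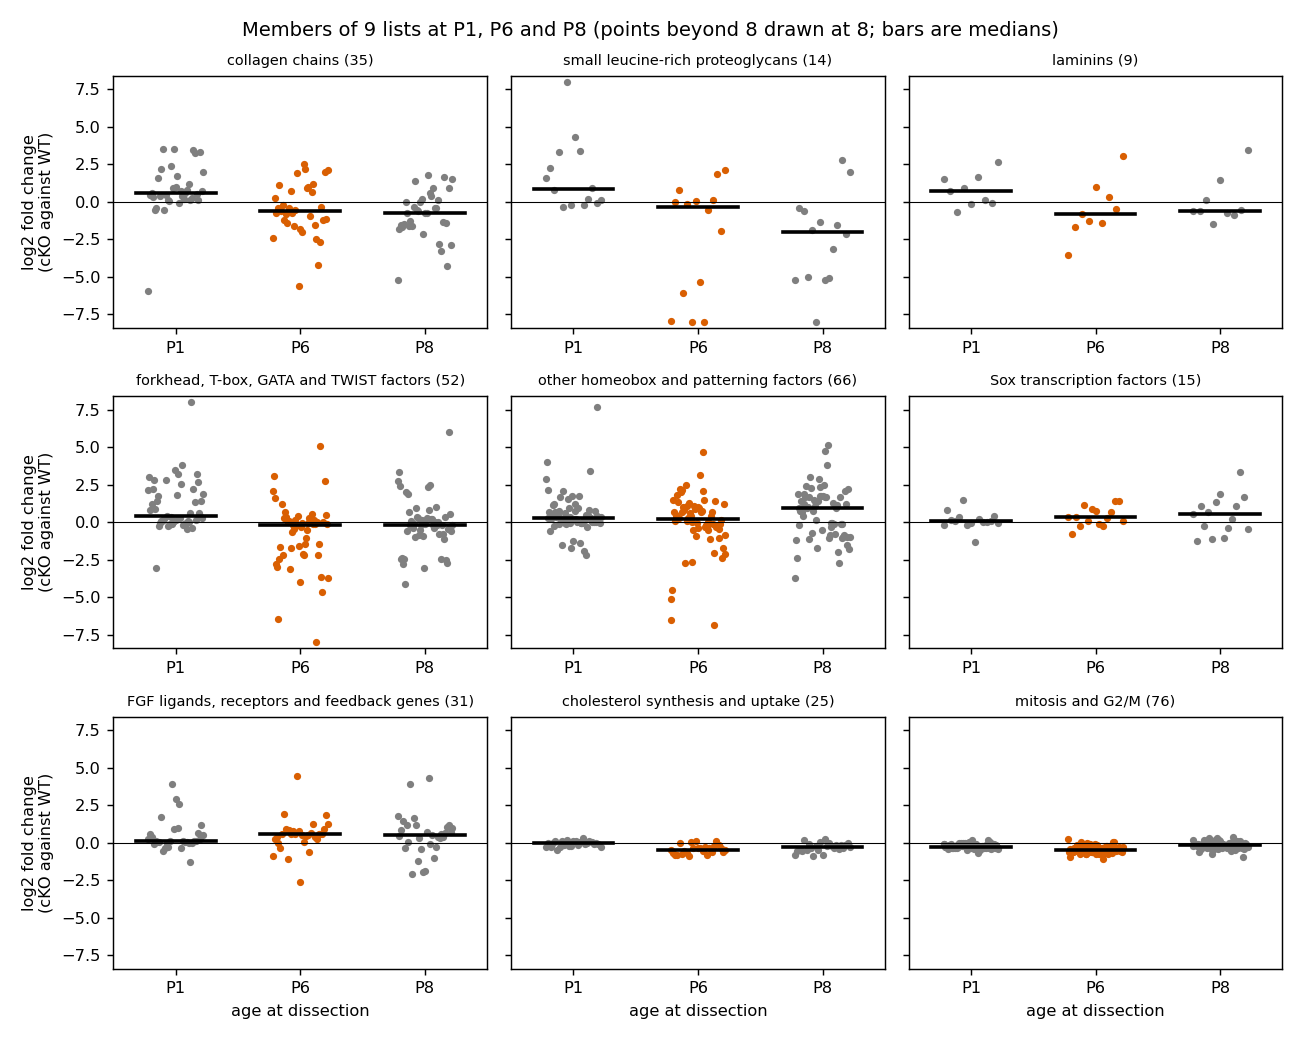
Log2 fold changes (cKO minus WT) on the y axis at P1, P6 and P8 on the x axis for the members of 9 lists, 1 point for each gene, with bars at the medians and values beyond 8 drawn at 8. Collagens and laminins have positive medians at P1 (0.59 and 0.74) and negative ones at P6 (-0.63 and -0.84) and P8 (-0.73 and -0.59).

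Single genes stood apart at P6 from both other ages. *Msln*, mesothelin, a surface protein of mesothelium, rose from 0.347 and 0.0584 CPM with the label WT to 16.8 and 18.3 with the label cKO (log2 fold change 6.45, standard error 0.67, adjusted p = 1.10e-04 by edgeR), with log2 fold changes of 2.80 at P1 and 2.14 at P8. *Tspan32* rose from 0.663 and 0.234 CPM with the label WT to 6.62 and 4.82 with the label cKO (log2 fold change 3.68, standard error 0.48, adjusted p = 4.50e-04 by edgeR). *Serpina10*, an inhibitor of clotting factors, fell from 2.89 and 3.23 CPM with the label WT to 0 in both libraries with the label cKO, at least 132.7-fold lower against the floor of 3 counts over both libraries, and the prolactin family genes *Prl2c2* and *Prl2c3*, near-identical copies, had 6.99 and 6.04 CPM with the label WT and 0 in both libraries with the label cKO and 3.27 and 3.53 CPM with the label WT and 0 in both libraries with the label cKO. The non-coding *Dnm3os* had 36.5 and 2.92 CPM in the WT libraries and 0 in both cKO libraries, so its WT replicates differed by more than 10-fold.

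Sex-linked genes went with age and not with label. All 4 P6 libraries had *Xist* between 825 and 1436 CPM and *Ddx3y*, *Eif2s3y*, *Kdm5d* and *Uty* at no more than 0.0622 CPM, while all 8 P1 and P8 libraries had *Xist* at no more than 0.915 CPM and each of those Y-linked genes between 34.3 and 174.5 CPM. Both labels were alike at P6, so this does not divide the P6 comparison. For differences between P6 and the other ages, age and the sex-linked state cannot be told apart.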

How the data were processed

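The RNA-seq data were a table of 18903 genes by 12 libraries holding whole-number counts per gene, deposited by the authors without normalization. The submitters' processing notes name HISAT2 and mm10, while no source used here names the counting program, its strand setting or its annotation. Libraries were grouped by label (WT or cKO, at P1, P6 or P8, 2 each) and P6 cKO was compared with P6 WT.

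Counts were tested with edgeR 4.0.16 (quasi-likelihood F-test, TMM scaling, filterByExpr, R 4.3.3) on all 12 libraries in 6 groups, which left 6 residual degrees of freedom, with Benjamini-Hochberg adjustment over 17938 genes. A gene was called at an adjusted p under 0.05 and a fold change of at least 1.5. Differences between ages were contrasts of the same fit, called by adjusted p alone. CPM values used scaled library sizes, and levels per kilobase used exon lengths from GENCODE vM21 (GRCm38), which also gave identifiers and whole-gene coordinates. Promoters were those of RefSeq for GRCm38.p6, 250 bases before to 50 after the start. The test was also tried on simulated counts that took their levels, library sizes and spread from the fit of these data. Alternatives were an unadjusted p, a fold change of 2, DESeq2 1.42.0, edgeR with DESeq2 size factors, keeping genes of low counts, the P6 libraries alone, a replicate block and leaving out each P6 library.

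The gene lists and markers were chosen with earlier results of these data known. Names that turned out to match another gene were removed from the lists after values had been seen. A list was described in full where at least 5 members were tested, at least 4 were called in 1 direction, and their share was at least 2 times that of all genes. In such lists, the genes that could be named were the 4 largest rises and falls and the 2 highest levels per kilobase. The rises and falls needed a mean of at least 1 CPM. They also needed both libraries of 1 label beyond both of the other, which held for every gene called. Of these genes, the text gives mainly those whose call was kept in every alternative other than the fold change of 2. Of the 194 genes named, 26 fell outside that rule. These, the choice among the rule's genes and the plotted genes were picked after their values had been seen. A gene at 0 in both libraries of a label was given a floor of 3 counts over the group, which covers counting error only.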

Additional observations from a re-analysis of the deposited data

Results flagged for a closer look

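Results are given here where a gene named above was called at P6 and called in the opposite direction at another age, and the difference between the 2 effects passed edgeR's test. In the wider set, 173 of the 194 genes had an effect that differed between P6 and P1 and 134 between P6 and P8. Each value is the log2 fold change (cKO minus WT) at P6 minus that at the other age. Both comparisons use the same P6 libraries, and the sex-linked genes differ between P6 and the other ages, so age and that state cannot be told apart. Values of genes at 0 in both libraries of a label (*Lum*, *Prdm6*, *Prl2c2*) depend on the prior count of the fit and are no bounds.

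Genes that fell at P6 and rose at P1 came from many groups. Among collagens and laminins the difference was -2.98 for *Col1a1*, -4.89 for *Col1a2*, -9.15 for *Col3a1*, -2.78 for *Col4a1*, -3.77 for *Col4a2*, -7.67 for *Col6a3*, -5.02 for *Lama1* and -2.41 for *Lama2*. Among other matrix genes the difference was -15.44 for *Lum*, -9.43 for *Dcn*, -4.49 for *Fbln1*, -6.72 for *Fbn2*, -3.95 for *Has2*, -2.76 for *Vcan*, -3.62 for *Mmp2* and -3.38 for *Thbs2*. Among adhesion and guidance genes the difference was -9.08 for *Cdh5*, -3.04 for *Cdh11*, -7.93 for *Gjb2*, -6.62 for *Epha1* and -5.63 for *Sema3d*. Among transcription factors the difference was -10.26 for *Six2*, -6.66 for *Alx4*, -4.19 for *Msx1*, -9.29 for *Foxd1*, -4.04 for *Foxc1*, -7.36 for *Tbx18*, -22.19 for *Prdm6* and -2.13 for *Egr3*. Among imprinted and insulin-like growth factor genes the difference was -13.70 for *Igf2*, -8.68 for *H19*, -3.46 for *Grb10*, -9.10 for *Igfbp6* and -2.59 for *Igfbp7*. Among other growth factor genes the difference was -5.57 for *Fgf7*, -4.36 for *Bmper*, -5.82 for *Ror2* and -18.86 for *Prl2c2*. Among prostaglandin and retinoid genes the difference was -5.80 for *Ptgs2*, -5.56 for *Ptges*, -15.38 for *Ptgis*, -3.13 for *Aldh1a2* and -5.70 for *Crabp2*. Among channels, transport, enzymes and contractile genes the difference was -5.40 for *Aqp1*, -5.86 for *Cacna1g*, -6.09 for *Kcnj15*, -5.14 for *Slc7a11*, -3.47 for *Enpp1* and -11.48 for *Actg2*. For the interferon-stimulated *Ifitm1* it was -2.55.

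Genes that rose at P6 and fell at P1 were few. The difference was 2.43 for *Itgb4*, 2.61 for *Shh* and 5.31 for *Tspan32*.

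Against P8, the effect was opposite for 9 genes. Those that fell at P6 and rose at P8 differed by -3.71 for *Ccl7*, -2.69 for *Dusp4*, -2.18 for *Itga8*, -3.40 for *Oas3*, -15.81 for *Prl2c2*, -4.63 for *Ptgs2* and -1.84 for *Tlr8*. Those that rose at P6 and fell at P8 differed by 3.83 for *Mmp3* and 2.89 for *Tgfa*.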

How the results depend on the processing

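At a fold change of 2 in place of 1.5, 784 genes rose and 714 fell at P6, against 1284 and 1144, and within the gene lists 168 rose and 222 fell, against 274 and 348. Of 72 list counts of at least 4 genes, 37 were lower by more than 1.5 times under that threshold, as fewer genes can pass it. Under the other alternatives the counts of all genes stayed within 1.5 times, between 1120 and 1606 up and 1028 and 1425 down. Leaving out each P6 library gave 1123 to 1143 up and 1028 to 1086 down over all genes, and 243 to 250 up and 312 to 355 down within the lists. The counts of genes whose effect differed between P6 and P1 were 2313 to 2464, and between P6 and P8 3279 to 3561, with a library left out. A library left out moved between 7 and 8 of the 72 list counts by more than 1.5 times, given above where the text rests on them. No gene named above changed direction, and apart from the fold change of 2 the calls lost were those of *Oas3*, *Pax8*, *Egr2*, *Kif22* and *Kif2c*. The genes named were mainly chosen because their calls were kept under these alternatives. Their stability therefore follows largely from that choice and says little about the other genes called.

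Equal replicate numbers did not pair the libraries: the correlations of deviations between same-numbered libraries were -0.030, -0.0055 and -0.063 at the 3 ages. With the replicate number as a block, 1120 genes rose and 1031 fell, 254 and 320 within the lists, and 1878 and 2840 effects differed from P1 and P8. Of the 72 list counts, the block moved 2 by more than 1.5 times: 5 potassium channel subunits rose, against 9, and 2 GABA and glutamate receptor genes, against 5. *Oas3* was the gene named above whose call was lost under the block, and the median of interferon-stimulated genes was -0.35.

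With 2 libraries for each label, a single library can decide a count, as in the interferon list. The depth, at least 64179279 counts in each P6 library, limits genes near 0.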
